A study of Mus musculus with 10 samples.

Results

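Cadm and Cntnap genes encode cell adhesion molecules best known from synapses and myelinated nerves, and 9 of them and their neurexin and neuroligin relatives (Cadm1, Cadm2, Cadm3, Cadm4, Cntnap1, Cntnap2, Cntnap4, Nrxn2 and Nlgn2) were followed here in mouse glomeruli. The members are all probe sets of the array that the platform annotation gives to exactly 1 gene, where that gene is on this list. They came to 17 of the 45037 probe sets analysed and stood for 8 of the 9 genes, while Cadm2 was not analysed here. The mutants (Wt1+/R394W) were 5 males heterozygous for a knock-in of the R394W change in Wt1, and they were compared with 5 male wild-type littermates (Wt1+/+). All 10 mice were 27 days old and came from a backcross of 4 generations to FVB/N. Glomeruli filter the blood in the kidney, and they were isolated here after beads had been perfused through the heart, and each mouse gave 1 expression array. Wt1 is a zinc finger transcription factor that podocytes, the epithelial cells of the filter, need throughout life, and its R394W form is known from patients with Denys-Drash syndrome. The allele is carried in all cells of the mutants, and the submitters reported little albuminuria in these animals, and by light microscopy they saw no lesions of the mesangium.

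Cadm proteins carry immunoglobulin domains outside the cell and bind each other, or nectins, on the neighbouring cell. Inside the cell their short tails hold band 4.1 proteins and PDZ scaffolds. Cntnap proteins (contactin-associated proteins) belong to the neurexin superfamily and work with contactins beside the node of Ranvier, while neurexins and neuroligins bind each other across the synaptic cleft. In the glomerulus, podocyte foot processes are joined by the slit diaphragm, a junction that is also built from immunoglobulin-type adhesion proteins on PDZ scaffolds.

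The data are log2 expression values made by the authors with RMA, a method that brings arrays to a common distribution and gives 1 value per probe set. A change means the mutants' mean minus the wild types' mean on this log2 scale, with the standard error (SE) of a limma fit over all 45037 probe sets, and n = 5 mice per genotype. The members were chosen by name with their genotype differences in these arrays already known, and Cadm1 and Cntnap2 were selected on that difference, so the differences of the 17 probe sets are a description, and no p-value is given for them. Array medians lay within 0.0817 of each other, correlations between arrays ran from 0.985 to 0.997, and precision is limited by the 5 arrays per genotype. Podocyte markers were present at high signal: all 7 analysed, Nphs1, Podxl and Synpo among them, had means at or above percentile 93.4 of all probe sets in mutants and 96.3 in wild types. Glomeruli hold several cell types, so more cells of a type and more RNA per cell cannot be told apart.

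The promoters of Cntnap2 and Cadm4 are shown because Cntnap2 had the largest difference between genotypes among the members, while Cadm4, of the same families, had the highest signal and overlapped between genotypes. The windows run from 250 bases before to 50 bases after an annotated start (RefSeq, GRCm38.p6), and 5 of the 9 genes, with 6 windows, are in that table. Capitals mark matches to GCGNGGGNG, a pattern of the zinc finger sites that Egr1 and Wt1 can bind, searched on both strands with overlaps allowed. Cntnap2 has a start at chr6:45059811-45060110 (plus strand), and another at chr6:47244146-47244445 (plus strand). The Cadm4 window is chr7:24481773-24482072 (plus strand).
Cntnap2, first start: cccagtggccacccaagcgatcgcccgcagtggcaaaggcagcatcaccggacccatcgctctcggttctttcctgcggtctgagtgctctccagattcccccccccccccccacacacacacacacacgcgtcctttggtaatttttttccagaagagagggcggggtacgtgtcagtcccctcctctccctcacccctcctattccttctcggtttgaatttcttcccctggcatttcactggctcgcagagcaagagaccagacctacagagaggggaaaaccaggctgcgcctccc
Cntnap2, other start: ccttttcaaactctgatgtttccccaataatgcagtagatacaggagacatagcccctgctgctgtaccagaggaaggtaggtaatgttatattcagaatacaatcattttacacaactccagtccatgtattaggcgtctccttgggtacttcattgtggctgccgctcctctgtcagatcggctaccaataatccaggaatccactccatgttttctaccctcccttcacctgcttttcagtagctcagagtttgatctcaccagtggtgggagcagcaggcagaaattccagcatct
Cadm4: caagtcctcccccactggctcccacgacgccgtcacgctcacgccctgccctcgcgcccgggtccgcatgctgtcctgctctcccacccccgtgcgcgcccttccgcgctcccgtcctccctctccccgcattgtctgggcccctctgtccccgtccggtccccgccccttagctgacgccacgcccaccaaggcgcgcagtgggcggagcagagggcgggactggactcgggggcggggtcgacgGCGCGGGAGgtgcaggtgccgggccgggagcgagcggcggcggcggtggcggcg
Neither Cntnap2 window held a match, and Cadm4 held 1. Of the other windows, Nlgn2 held 1 match, Cadm3 held 1 on each strand and Cadm2 held 0. Among all 32851 windows of the table, 12.3% held the pattern. A match says only that these letters are there. The base composition differed too, with 77.0% G and C in the Cadm4 window, 59.7% and 46.3% in the Cntnap2 windows, and a median of 52.7% over all windows.

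Cadm1, a nectin-like adhesion molecule of epithelia and neurons, had the most probe sets and differed clearly at 3 of 4. Its probe set of highest mean (1417378_at, chromosome 9) read 7.99, 8.16, 8.35, 8.14 and 8.81 in mutants 1 to 5, against 5.66, 6.19, 6.22, 6.07 and 5.86 in wild types 1 to 5. The lowest mutant lay 1.77 above the highest wild type, and mutant 5 was the highest of all. The means were 8.29 ± 0.32 in mutants and 5.999 ± 0.24 in wild types (SD, n = 5 each), a change of 2.29 ± 0.16 (SE) or 4.89-fold. Set among all probe sets of its own genotype, that mean stood at percentile 71.9 in mutants and 44.8 in wild types. Cadm1 was selected on its genotype difference, so the size of the fold is uncertain.

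Both neighbouring Cadm1 probe sets showed the same separation at lower signal. Wild-type means there were 4.94 (1417377_at, percentile 28.2) and 4.79 (1417376_a_at, percentile 26.0), a low range where RMA values are compressed. Probe set 1417377_at read 6.58, 7.18, 7.05, 6.68 and 7.10 in mutants, against 4.70, 5.36, 5.17, 4.76 and 4.70 in wild types, a change of 1.98 ± 0.16 (SE). Probe set 1417376_a_at read 6.54, 6.51, 6.89, 6.83 and 7.27 in mutants, against 4.78, 5.03, 4.90, 4.30 and 4.94 in wild types, a change of 2.02 ± 0.17 (SE). In each, every mutant lay above every wild type, by at least 1.22 and 1.48. The remaining Cadm1 probe set, 1431611_a_at, did not share this: it read 6.46, 6.10, 6.35, 6.38 and 6.86 in mutants, against 6.23, 5.91, 6.29, 6.32 and 6.55 in wild types. Those values overlapped, with a change of 0.17 ± 0.14 (SE). The platform annotation lists it with another source sequence than the other 3, which share one.

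Cntnap2, known as Caspr2, clusters potassium channels beside the nodes of nerve fibres. It differed at 1 of its 3 probe sets. That probe set (1422798_at, chromosome 6) read 7.07, 7.71, 7.52, 7.05 and 8.13 in mutants, against 5.09, 4.90, 5.06, 4.82 and 5.14 in wild types. The genotypes were 1.90 apart at their closest, and the spread was wider among mutants. The means were 7.49 ± 0.45 in mutants and 5.00 ± 0.13 in wild types (SD, n = 5 each), so the change was 2.49 ± 0.18 (SE) or 5.63-fold. Its mean stood at percentile 63.6 in mutants and 29.3 in wild types. Low values of RMA are compressed, and the wild-type values lie in that range. Cntnap2 was also selected on this difference, so the size of the fold is uncertain.

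The other Cntnap2 probe sets were low in both genotypes. Probe set 1450758_at, which the annotation lists with the same source sequence as the one that differed, read 5.07, 4.82, 4.68, 4.67 and 4.93 in mutants, against 4.49, 4.58, 4.71, 4.29 and 4.81 in wild types. Probe set 1437782_at read 4.10, 3.85, 4.001, 3.68 and 3.65 in mutants, against 3.67, 3.42, 3.68, 3.75 and 3.58 in wild types. Both overlapped between genotypes, with changes of 0.26 ± 0.11 (SE) and 0.23 ± 0.10 (SE) in the direction of the first.

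**Figure D1:**
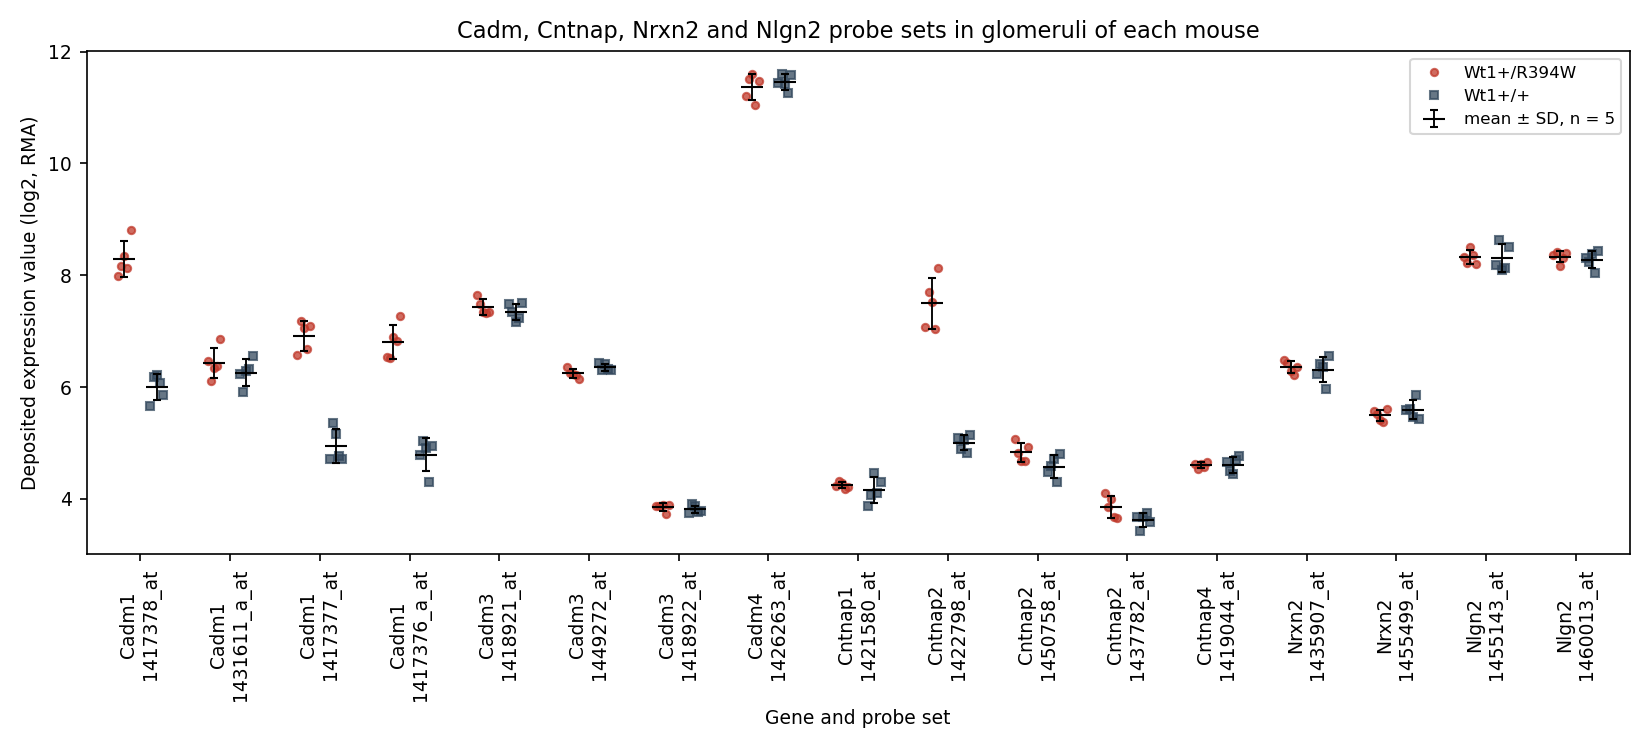
Deposited log2 values (vertical axis) of the 17 probe sets (horizontal axis) in each of 5 Wt1+/R394W mice (red circles) and 5 Wt1+/+ mice (dark squares), with black bars for the mean ± SD. At 3 Cadm1 probe sets and 1 Cntnap2 probe set every mutant lies above every wild type, and at the other 13 the genotypes overlap.

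Over all members, 4 of 17 probe sets passed an adjusted p under 0.05 in the fit over the whole table, all with higher values in mutants: 3 of Cadm1 and 1 of Cntnap2. Of all 45037 probe sets, 0.853% passed in either direction and 0.391% passed with higher values in mutants. In the same 4 probe sets the genotypes did not overlap, which was so in 2.78% of all probe sets. A further 0.462% of all probe sets passed with lower values in mutants, and 0 of the 17 did. Since Cadm1 and Cntnap2 were chosen for this contrast, nothing is read from that count. The median change of the 17 probe sets was 0.08, beside -0.0022 over all probe sets. The 17 include the 4 Cadm1 and 3 Cntnap2 probe sets, so nothing is read from this median either. None of the 8 genes lies on chromosome 2, where Wt1 lies.

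The other Cadm genes hardly differed between genotypes. Cadm4, which in nerves joins Schwann cells to axons, had a high signal, at percentile 95.9 of all probe sets in mutants and 96.3 in wild types. It read 11.21, 11.51, 11.59, 11.05 and 11.47 in mutants, against 11.44, 11.61, 11.41, 11.26 and 11.58 in wild types (1426263_at, chromosome 7). The change of -0.09 ± 0.11 (SE) was smaller than the SD among mutants (0.23) and among wild types (0.14). Cadm3, a mainly neuronal member, read 7.65, 7.49, 7.33, 7.32 and 7.35 in mutants, against 7.48, 7.35, 7.15, 7.23 and 7.50 in wild types at its probe set of highest mean (1418921_at, chromosome 1), a change of 0.08 ± 0.09 (SE). Its 2 other probe sets changed by -0.11 ± 0.06 (SE, 1449272_at) and 0.04 ± 0.06 (SE, 1418922_at), and the genotypes overlapped in all 3.

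Cntnap1 and Cntnap4 were at the low end of the arrays. Cntnap1 (Caspr), which forms the junction between axon and myelin with contactin 1, read 4.18 to 4.31 in mutants, with a median of 4.24, against 3.87 to 4.46 in wild types, with a median of 4.10 (1421580_at, chromosome 11). Cntnap4, found at synapses of inhibitory neurons in mice, read 4.53 to 4.66 in mutants, with a median of 4.62, against 4.44 to 4.77 in wild types, with a median of 4.66 (1419044_at, chromosome 8). Their means stood at percentiles 17.0 and 23.0 of all probe sets in mutants and 15.5 and 23.1 in wild types. Changes were 0.08 ± 0.10 (SE) for Cntnap1 and -0.01 ± 0.07 (SE) for Cntnap4. Signals this low do not show whether the transcripts were present.

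Nrxn2 and Nlgn2 encode a neurexin of the presynaptic and a neuroligin of the postsynaptic, inhibitory side. Nlgn2 had a moderate signal at both of its 2 probe sets, which did not order the mice alike: mutant 3 was the highest mutant in the first and the lowest in the second. The first (1455143_at, chromosome 11) read 8.33, 8.22, 8.51, 8.36 and 8.19 in mutants, against 8.19, 8.62, 8.09, 8.13 and 8.51 in wild types, and the second (1460013_at) read 8.36, 8.41, 8.16, 8.32 and 8.39 in mutants, against 8.31, 8.24, 8.38, 8.03 and 8.43 in wild types. Changes were 0.01 ± 0.11 (SE) and 0.05 ± 0.08 (SE), within the spread of either genotype. Nrxn2 read 6.48, 6.43, 6.29, 6.22 and 6.35 in mutants, against 6.23, 6.42, 6.36, 5.97 and 6.56 in wild types (1435907_at, chromosome 19), a change of 0.05 ± 0.10 (SE). Its other probe set (1455499_at) changed by -0.10 ± 0.09 (SE), again with overlap.

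Over the 6 genes without a called probe set, the 10 changes lay between -0.11 and 0.08, with SEs from 0.06 to 0.11. Of these, 6 were positive and 4 negative.

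**Figure D2:**
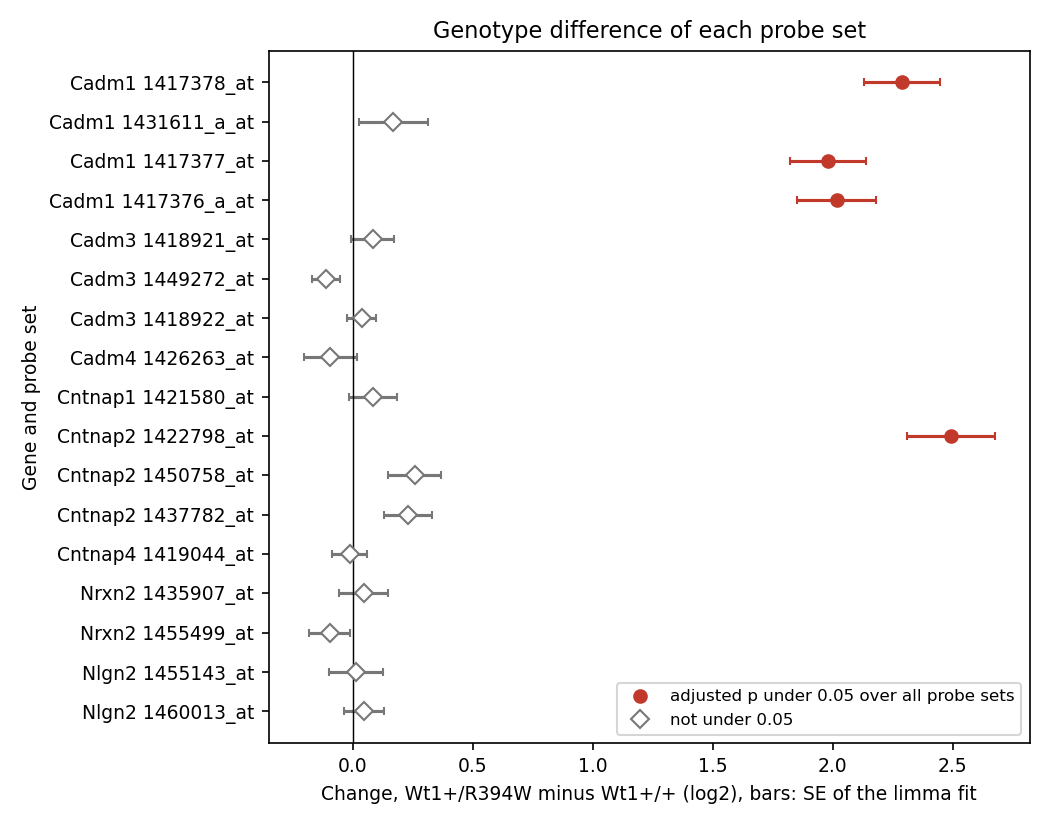
Change of each probe set (horizontal axis, Wt1+/R394W minus Wt1+/+, log2) with the SE of the limma fit as bars, by gene and probe set (vertical axis). Filled circles passed an adjusted p under 0.05 over all 45037 probe sets, and the open diamonds, which did not, lie between -0.11 and 0.26.

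Tubule marker signal differed between preparations, and it is given beside the genes that differed. The tubule score, the mean log2 value of 12 tubule markers, was 9.41, 9.08, 8.79, 9.90 and 7.32 in mutants 1 to 5, against 9.09, 8.40, 8.94, 9.12 and 6.89 in wild types 1 to 5, and the median change of the 12 markers was 0.38. None of them (0 of 12) passed the test in limma, with 1 at an unadjusted p under 0.05. Mutant 5, with the lowest score among mutants, had the highest value of Cadm1 (1417378_at, 8.81) and of Cntnap2 (8.13). Mutant 4, with the highest score, had the lowest Cntnap2 value among mutants (7.05). Cadm1 was lowest among mutants in mutant 1 (7.99), and its probe set 1417377_at was highest in mutant 2 (7.18). Wild type 5, with the lowest score of all, lay within the other wild types for Cadm1 (5.86) and above them for Cntnap2 (5.14). Mutant 5 was also the highest mouse in the mesangial and smooth muscle score (11.12, against 10.53 to 10.90 in the other mutants and 10.31 to 10.68 in wild types). Of its 7 genes, named here after their values were seen, the smooth muscle actin Acta2 read 12.45, 11.72, 11.78, 12.41 and 13.29 in mutants 1 to 5, against 11.70, 11.76, 11.09, 11.13 and 11.51 in wild types 1 to 5, a change of 0.89 ± 0.27 (SE, limma adjusted p = 0.243). Tagln, another smooth muscle gene, changed by 0.77 ± 0.28 (SE, limma adjusted p = 0.369) and was highest in mutant 5 (12.04). Myh11 (9.34) and Cnn1 (6.26) were highest in mutant 5 too. Pdgfrb was instead lowest of all mice in mutant 5 (12.42), with a change of -0.12 ± 0.16 (SE). Itga8 was lowest among mutants in mutant 5 (13.73), with a change of 0.12 ± 0.06 (SE), and Gata3 changed by 0.03 ± 0.15 (SE). The part of mesangial and smooth muscle cells in the Cadm1 and Cntnap2 values was not tested. With the tubule score as a covariate, the changes were 2.35 ± 0.15 (SE) for Cadm1 and 2.60 ± 0.14 (SE) for Cntnap2, close to those without it. The mesangial and smooth muscle score was not used as a covariate. Cadm4 was lowest in mutant 4 (11.05), and its change with the covariate was -0.04 ± 0.10 (SE).

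**Figure D3:**
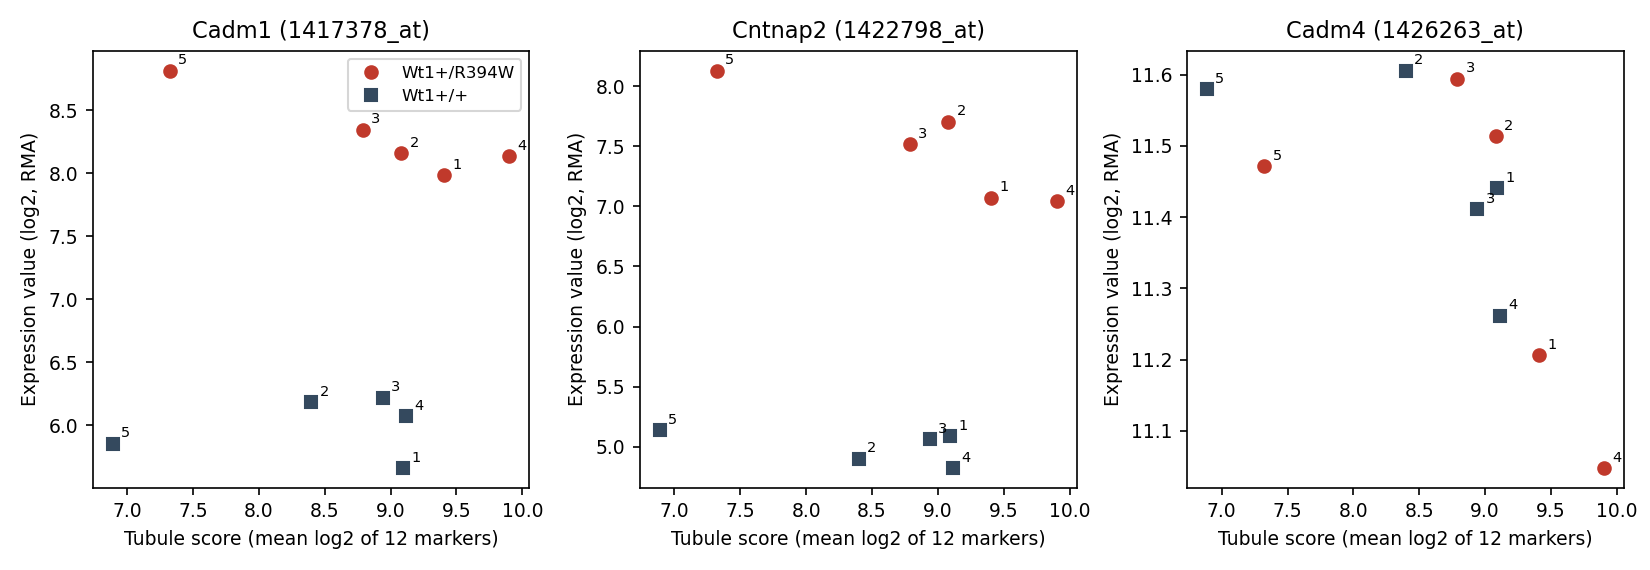
Log2 values (vertical axes, a separate range in each panel) of Cadm1, Cntnap2 and Cadm4 against the tubule score of the same array (horizontal axis, mean log2 value of 12 markers), with the mouse number beside each Wt1+/R394W (red circles) and Wt1+/+ mouse (dark squares). Mutants and wild types are separate for Cadm1 and Cntnap2 at low and high scores, and mixed for Cadm4. The low scores are those of mutant 5 (7.32) and wild type 5 (6.89) only.

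Markers of nerve cells were mostly low, and none passed the test. Of 16 markers of neurons and Schwann cells analysed, 0 passed the test in limma, their median change was 0.0019, and 5 had means above the median probe set. Their mean level ran from 5.35 to 5.40 in mutants and from 5.35 to 5.43 in wild types. Snap25 of the synapse stood at percentile 2.17 in mutants and 2.21 in wild types, and Tubb3, a neuronal tubulin, stood at 7.45 in mutants and 7.73 in wild types. The 5 above the median included Dbh (percentile 74.7 in mutants and 76.2 in wild types) and Stmn2 (66.1 and 65.9). The others were Erbb3 (58.1 and 57.3), Sox10 (57.4 and 57.2) and Mbp (55.9 and 53.7). The levels of podocyte markers ran from 12.53 to 12.89 in mutants and from 12.80 to 12.96 in wild types, those of mesangial and smooth muscle markers from 10.53 to 11.12 in mutants and from 10.31 to 10.68 in wild types, and those of endothelial markers from 11.68 to 12.02 in mutants and from 11.87 to 12.03 in wild types. Parietal epithelial markers ran from 6.86 to 7.11 in mutants and from 6.86 to 7.05 in wild types, and leukocyte markers from 6.27 to 7.02 in mutants and from 6.44 to 7.32 in wild types. Of all 64 markers, 2 were called lower in mutants (Thsd7a of podocytes and Csf1r of macrophages) and 0 higher. Over all 18193 genes, 0.698% passed with lower and 0.566% with higher values in mutants. The other probe sets of Thsd7a and Csf1r did not pass. No other leukocyte marker passed, and that list had a median change of 0.0094. With 1 mouse left out in turn, the number of markers called was 0 to 2. Whether a shift in cell types had a part in the differences of Cadm1 and Cntnap2 was not tested.

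Genes that work with the members were read from the same fit, with the share over all genes beside their count. Of 101 analysed in the partner lists, with 1 probe set each, 1 rose (Epb41l1) and 1 fell (Nectin4) at an adjusted p under 0.05, where 0.566% of all 18193 genes passed with higher and 0.698% with lower values in mutants (1.26% in either direction). Their median change was -0.01, and that of all probe sets was -0.0022.

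Epb41l1, the neuronal band 4.1 protein 4.1N, belongs to the family that links Cadm tails to the actin cytoskeleton. It read 7.22, 7.54, 7.66, 7.28 and 7.23 in mutants, against 6.87, 6.57, 6.82, 6.54 and 6.80 in wild types (1460592_at). Every mutant lay above every wild type, and the change was 0.67 ± 0.11 (SE, limma adjusted p = 0.0134), or 1.59-fold. Its 2 other probe sets did not pass (0.31 ± 0.13 SE, adjusted p = 0.477, and 0.24 ± 0.09 SE, adjusted p = 0.404). Over the mean of its probe sets the change was 0.41 ± 0.09 (SE, adjusted p = 0.0526). Epb41l1 lies on chromosome 2, the chromosome of Wt1, in a stretch, noted in earlier results of these arrays, from Cep250 to Rab5if where 6 of 21 analysed genes, Epb41l1 included, were called higher and 0 lower. That stretch was picked for its calls. Among the 21 genes made up of Epb41l1 and the 10 on each side, 5 were called higher, Epb41l1 included, and 0 lower. Most of these 21 genes also belong to the picked stretch, so the 2 counts are not separate. Of 1407 genes on chromosome 2, 17 were called higher and 13 lower. Genotype and flanking chromosome cannot be told apart for it in this design.

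Of 30 cytoplasmic scaffold genes, Epb41l1 alone passed, and the list had a median change of 0.03. Epb41l3 (4.1B), the band 4.1 protein first linked to Cadm1, changed by 0.31 ± 0.31 (SE, adjusted p = 0.825). Cask, a PDZ scaffold of neurexins and Cadm proteins, changed by 0.12 ± 0.08 (SE, adjusted p = 0.712), Mpp3 by -0.29 ± 0.09 (SE, adjusted p = 0.287) and Mpp5 (Pals1, of the epithelial polarity complex) by -0.39 ± 0.14 (SE, adjusted p = 0.368). Magi2 was not analysed here.

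Nectins are adhesion molecules that Cadm proteins resemble and in part bind. Of 8 genes of this list, Nectin4 fell, and 0 rose. It read 5.74, 6.26, 6.29, 5.56 and 6.14 in mutants, against 7.13, 6.69, 7.01, 6.59 and 6.58 in wild types (1451690_a_at, chromosome 1). The genotypes were separate, and the change was -0.80 ± 0.16 (SE, limma adjusted p = 0.0491). This call was marginal: it was lost without any 1 of the 10 mice and in 16 of 18 other settings in all, with adjusted p from 0.0397 to 0.282. Its other probe set changed by -0.75 ± 0.24 (SE, adjusted p = 0.271). Nectin3, which Cadm1 can bind, changed by 0.05 ± 0.09 (SE, adjusted p = 0.896), Nectin1 by -0.12 ± 0.07 (SE, adjusted p = 0.654) and Crtam, a lymphocyte ligand of Cadm1, by 0.26 ± 0.11 (SE, adjusted p = 0.475).

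Among 25 contactins and genes of the node of Ranvier, 0 passed in limma, with a median change of -0.01. Nearest was Adam22, a membrane protein that joins Cntnap2 in the potassium channel clusters of nerve fibres. It read 9.21, 8.92, 8.86, 9.14 and 9.76 in mutants, against 8.01, 8.64, 7.97, 8.18 and 8.56 in wild types (1435293_at, chromosome 5). The genotypes did not overlap, and the change was 0.90 ± 0.18 (SE, limma adjusted p = 0.0512). The adjusted p lay between 0.00866 and 0.176 in other settings and passed in 4 of 19, among them without wild type 2 (0.0477). Its other probe set changed by -0.02 ± 0.09 (SE, adjusted p = 0.976). The contactins that pair with members did not pass. Cntn1, the partner of Cntnap1, changed by -0.02 ± 0.06 (SE, adjusted p = 0.954) and Cntn2, the partner of Cntnap2, by -0.03 ± 0.06 (SE, adjusted p = 0.917). L1cam changed by -0.25 ± 0.08 (SE, adjusted p = 0.295) and Adam23 by 0.23 ± 0.08 (SE, adjusted p = 0.384).

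Of 38 partners of neurexins and neuroligins, 0 passed in limma, with a median change of -0.02. Flrt2, a ligand of latrophilins, changed by -0.35 ± 0.11 (SE, adjusted p = 0.254), the receptor phosphatase Ptprs by 0.25 ± 0.08 (SE, adjusted p = 0.275) and Ntng2, a netrin-G, by -0.43 ± 0.15 (SE, adjusted p = 0.325). Nlgn3 changed by -0.02 ± 0.08 (SE, adjusted p = 0.968). At an unadjusted p under 0.05 there were 6 of these 38 genes, 4 of the 25 contactin and node genes, 5 of the 30 scaffold genes, 2 of the 8 nectin genes and 1 of the 16 nerve markers, where 11% of all 18193 genes had such a p.

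**Figure D4:**
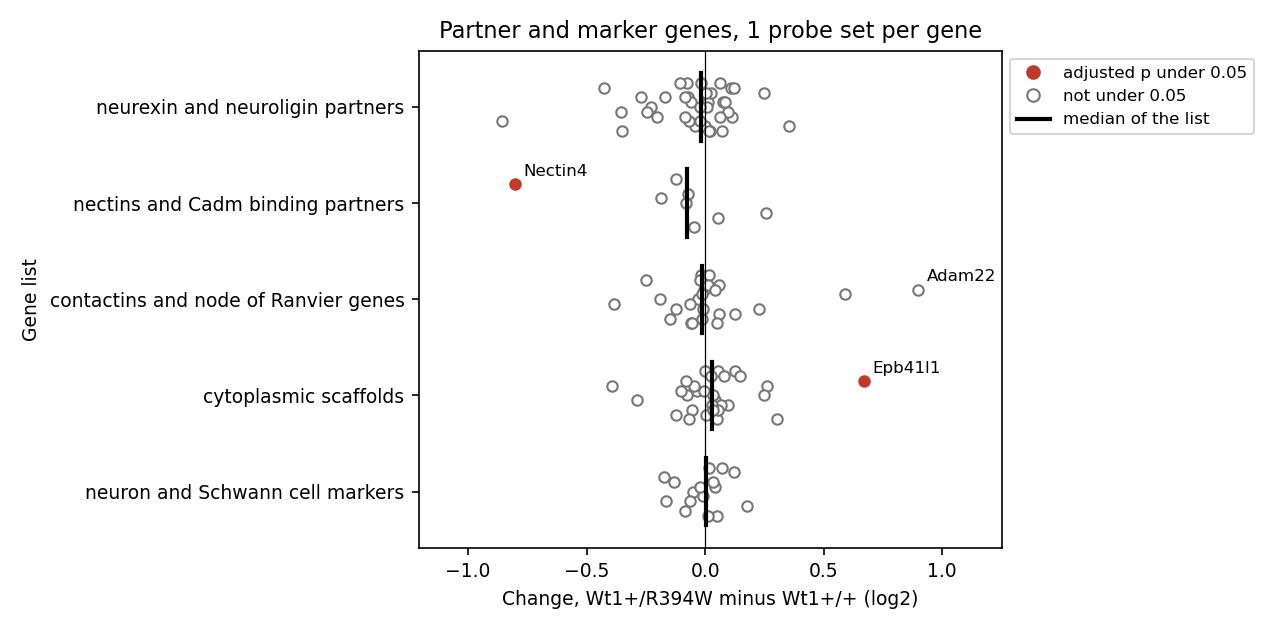
Change of each partner or nerve marker gene (horizontal axis, Wt1+/R394W minus Wt1+/+, log2, 1 probe set per gene) by list (vertical axis, points spread for legibility), with a bar at the median of each list. Filled points, Epb41l1 and Nectin4, passed an adjusted p under 0.05, and Adam22 is labelled as the largest positive change that did not.

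The genes whose values across all 10 arrays were most like those of Cadm1 (1417378_at) were Rbfox1 (Pearson r = 0.992), Dcn (0.982), Reep1 (0.982), Pstpip2 (0.979) and Cntnap2 (0.979), out of 18192 other genes. For Cntnap2 (1422798_at) they were Reep1 (0.987), P4ha3 (0.987), Adgrg6 (0.982), Cadm1 (0.979) and P2ry14 (0.975). All of these were higher in mutants, with changes from 0.95 (Pstpip2) to 2.49 (Cntnap2), so the likeness holds the genotype difference itself. With the mean of each genotype subtracted, Cntnap2 and Cadm1 had r = 0.578 and stood at place 1758 on the list of Cadm1. The genes most like Cadm1 were then Kat7 (0.950), Sem1 (0.950), Pih1d1 (0.938), Gm15471 (0.934) and Srxn1 (0.934), and those most like Cntnap2 were Rwdd2a (0.960), M6pr (0.960), Ceacam12 (0.952), Oprd1 (0.942) and Morrbid (0.925). These are descriptions over 10 arrays that share the 2 genotypes and the tubule differences given above.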

How the data were processed

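Glomerular RNA of 10 mice was hybridised to 1 array each. The values are log2 expression deposited by the authors, made with RMA per the submitters' processing notes; version, settings and genome build are not given in the sources used. All 10 columns were assigned by title. Of 45101 probe sets, 64 controls were left out. The platform annotation named exactly 1 gene for 34945 probe sets, several for 932 and none listed for 9160, and 34741 matched the RefSeq table of GRCm38.p6 by gene number. The probe set of highest mean stood for a gene (18193 genes). Members, lists and alternatives were chosen with earlier results of these data known.

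The genotype difference was fitted in limma 3.58.1 under R 4.3.3 without covariates, with two-sided p-values adjusted by Benjamini-Hochberg over 45037 probe sets and a call at an adjusted p under 0.05. On simulated data of 45037 probe sets with 200 changed, 59.5%, 93.5% and 99.5% were recovered at changes of 0.5, 1 and 2. The labels name separate mice, and replicate numbers only name them. Alternatives were other scaling, a filter at a mean of 6, other variance models, array weights, a tubule covariate, mice of close animal numbers, probe sets without a cross-hybridising suffix, gene means and each mouse left out. Named partners are the called genes, the 3 of smallest p in each list and a fixed set (Cntn1, Cntn2, Epb41l3, Cask, Nlgn3, Nectin3, Crtam). For likeness, the 5 genes of highest r were named. Adam22 was labelled in the plot after its value was seen. Figures used matplotlib (version 3.10.9).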

Additional observations from a re-analysis of the deposited data

Results flagged for a closer look

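Over 35 probe sets of the members and named partners, 70 groups of 5 mice were searched for a single array far from the others, and chance gives about 1 in 20. Only 2 groups held such an array, no more than that rate gives, and in both it was mutant 4. Its Cadm3 value (1418922_at) was 3.72, below 3.87 to 3.90 in the other mutants, at a signal near the bottom of the arrays. Its Flrt2 value was 9.59, below 10.04 to 10.12 in the other mutants. Mutant 4 also had the highest tubule score, and a link was not tested.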

How the results depend on the processing

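The 4 member calls were kept in number under each alternative that kept their probe sets. The changes of Cadm1 (1417378_at, 1.997 to 2.36) and Cntnap2 (1422798_at, 2.33 to 2.61) stayed above 1.9 in all 18 settings. These ranges are for single probe sets. Gene means, which would also hold the Cadm1 and Cntnap2 probe sets that were not called, were not applied to members. The member count was 2 with a filter at a mean of 6, where 2 of the called Cadm1 probe sets were not fitted, and 3 without probe sets of a cross-hybridising suffix. With mice of close animal numbers only (mutants 1 to 4 and wild types 2 to 4), 110 probe sets passed in all, with 0 partner and 0 marker genes. That fit used fewer arrays than the main one. Without 1 mouse the total was 216 (without wild type 4, and 242 without wild type 1) to 301, the partner count 1 to 2 and the marker count 0 to 2. Partner counts were 1 with median centring, 1 with quantile normalization, 1 with array weights and 0 with gene means. The partner count rose to 3 with a filter at a mean of 6, where Adam22 also passed (limma adjusted p = 0.0414). The marker count was 3 with quantile normalization, beside 2 in the main fit. Epb41l1 lost its call with mice of close animal numbers (0.78, adjusted p = 0.0724) and with gene means. Values near 0 changed sign without a call: Cntn1 with array weights (0.0019), close animal numbers (0.0072), gene means (0.0601) and without 1 mouse (-0.045 to 0.025); Nlgn3 with the tubule covariate (0.0048), gene means (0.0542) and without 1 mouse (-0.060 to 0.014); Cntn2 with close animal numbers (0.0120) and without 1 mouse (-0.055 to 0.0018); Nectin3 with close animal numbers (-0.0039); and Nectin1 with gene means (0.0178). The cause of these shifts was not tested. No paired analysis was possible because the labels give no litter, and their animal numbers are not shared between genotypes: the mouse numbers used here follow the order of the samples and pair nothing. Low signal limits what the arrays show of Cntnap1, Cntnap4 and the weaker Cntnap2 probe sets.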
